A study of Mus musculus with 12 samples.

Results

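The 8 genes described here encode receptors through which the liver senses foreign compounds and glucocorticoids, together with their partners: Nr1i2 (PXR), Nr1i3 (CAR), Ahr (the aryl hydrocarbon receptor), Arnt, Rxra, Rxrb, Nr3c1 (the glucocorticoid receptor) and Por (cytochrome P450 oxidoreductase). They were taken by name from a table of 55385 annotated features, and all 8 were found. All 8 also passed the filter on low values, as did 16378 features in all, with the lowest of them at 21.7 TPM in any mouse. TPM (transcripts per 1000000) is a read count divided by gene length and scaled so that each library sums to 1000000, so levels can be compared between genes. Between mice, levels also depend on how the libraries are scaled, and results after rescaling are given below.

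Liver RNA was sequenced from 12 male C57BL6 mice, with 4 mice in each of 3 groups. Each mouse received 500000000 pfu of adenovirus at 7 weeks of age and was killed 7 days later. The GULL_control group (Ad-Ctrl) received the Lac and pAdV5 viruses. The mGULL_knockdown group (Ad-shmGULL) received a virus carrying a short hairpin RNA against mGULL, a mouse long noncoding RNA, together with pAdV5. The hGULL_rescue group (Ad-shmGULL+hGULL) received the hairpin virus together with one that expresses the human counterpart, hGULL. All 3 groups carried adenovirus, no uninfected mice were among them, and the level of mGULL itself was not analysed here. The labels put each mouse in its group and do not say how the animals were caged or the libraries batched.

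In GRCm38.p6, the build to which the reads were aligned, Nr1i3 spans 1:171213934-171218845, Rxra 2:27676445-27763319, Arnt 3:95434367-95497240 and Por 5:135670040-135735326. Ahr spans 12:35497979-35534989, Nr1i2 16:38248349-38294849, Rxrb 17:34031812-34038403 and Nr3c1 18:39410545-39519421. Promoter windows were listed for 6 of the 8 genes.

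PXR and CAR are nuclear receptors that bind DNA as a pair with a retinoid X receptor (RXRα or RXRβ) and drive genes of drug metabolism, chiefly P450 enzymes of the Cyp2b, Cyp2c and Cyp3a families. The aryl hydrocarbon receptor is held in the cytoplasm by chaperones until a ligand releases it, and then pairs with ARNT on short DNA elements near Cyp1a1 and its other targets. The glucocorticoid receptor is likewise kept by chaperones until it binds its hormone. P450 reductase, the product of Por, passes electrons from NADPH to every microsomal P450 and so stands downstream of all of these receptors.

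A set of 4 promoter windows from RefSeq (GRCm38.p6) is printed for the genes on which the account below turns: the reductase, the receptor PXR, and the classical targets Cyp1a1 (aryl hydrocarbon receptor) and Cyp3a11 (PXR). Each is the 250 bases before the start of transcription, read 5′ to 3′ on the strand of the gene. Capitals mark the core of the xenobiotic response element, GCGTG, or the half-site of RXR heterodimers, AGGTCA, on either strand, and no 2 matches overlap in these windows. The Por window is chr5:135688895-135689144 (plus strand) and lies inside the span of the gene. The Nr1i2 window is chr16:38294825-38295074 (minus strand) and straddles the upstream end of the gene. The Cyp1a1 window is chr9:57697363-57697612 (plus strand), inside the span of that gene, and the Cyp3a11 window is chr5:145879855-145880104 (minus strand), next to the upstream end of its gene.
Por: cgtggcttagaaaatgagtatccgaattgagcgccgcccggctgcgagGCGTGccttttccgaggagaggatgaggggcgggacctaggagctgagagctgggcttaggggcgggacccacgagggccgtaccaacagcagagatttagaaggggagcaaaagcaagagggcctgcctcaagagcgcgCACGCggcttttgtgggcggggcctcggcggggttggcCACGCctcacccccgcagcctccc
Nr1i2: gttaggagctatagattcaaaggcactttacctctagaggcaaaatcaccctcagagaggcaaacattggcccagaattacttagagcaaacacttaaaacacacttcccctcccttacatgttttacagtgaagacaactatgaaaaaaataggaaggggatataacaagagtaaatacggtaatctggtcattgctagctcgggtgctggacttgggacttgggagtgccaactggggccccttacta
Cyp1a1: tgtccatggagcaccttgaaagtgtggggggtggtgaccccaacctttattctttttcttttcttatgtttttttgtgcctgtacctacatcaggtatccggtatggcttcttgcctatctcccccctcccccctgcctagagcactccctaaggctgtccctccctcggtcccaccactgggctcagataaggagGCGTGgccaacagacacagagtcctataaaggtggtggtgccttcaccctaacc
Cyp3a11: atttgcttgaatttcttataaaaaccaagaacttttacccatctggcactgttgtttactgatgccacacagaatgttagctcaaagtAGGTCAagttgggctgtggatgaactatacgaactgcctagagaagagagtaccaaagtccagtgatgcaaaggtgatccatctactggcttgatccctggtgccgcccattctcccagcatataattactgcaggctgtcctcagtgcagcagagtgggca

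The Por window held 3 copies of GCGTG, at 202, 62 and 24 bases before the start (position of the first base), the last 2 of them on the opposite strand. The Cyp1a1 window held 1, at 54 bases, and 28.2% of all 32851 windows held at least 1. The Cyp3a11 window held 1 copy of AGGTCA, 162 bases before the start, against 14.0% of all windows with at least 1. Neither motif was found in the Nr1i2 window. Of the target genes that have a window, GCGTG was found in 4 of 9 for the aryl hydrocarbon receptor, and AGGTCA in 10 of 31 for PXR and CAR. A gene was counted here if any of its windows held a match, whereas the shares of all windows count single windows. All of these are matches of letters only.

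Por had the highest level of the 8 genes, with a mean of 521 TPM over the 12 mice, above 98.7% of tested genes. Rxra followed at 270 TPM, Nr1i3 at 220 TPM and Nr1i2 at 124 TPM, whereas Nr3c1 at 52.1 TPM, Ahr at 48.9 TPM, Arnt at 28.2 TPM and Rxrb at 28.1 TPM lay lower. Por was above Rxra, and Nr1i2 above Nr3c1, in 12 of 12 mice without overlap of their ranges. The neighbors Rxra and Nr1i3, Nr1i3 and Nr1i2, and Ahr and Arnt kept their order in 11 of 12 mice each, with overlapping ranges. Nr3c1 exceeded Ahr in 9 of 12 mice and Arnt exceeded Rxrb in 7 of 12, so neither of these neighboring pairs was set apart.

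**Figure D1:**
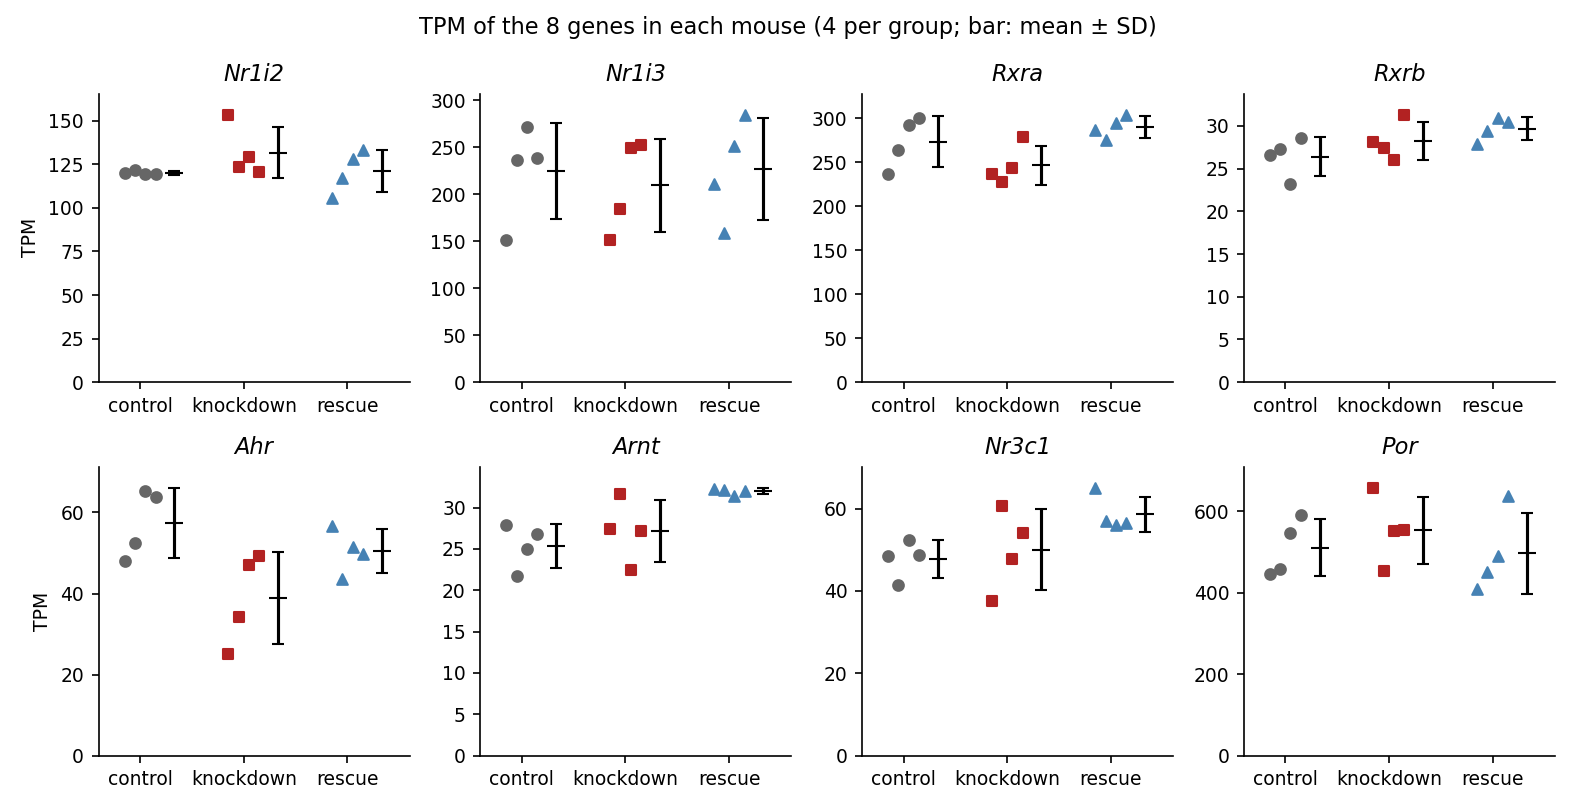
TPM of each of the 8 genes (y axis, from 0) in the 4 mice of each group (gray circles, control; red squares, knockdown; blue triangles, rescue), with the mean ± SD to the right of the points. Ahr was lowest in 2 knockdown mice (25.0 and 34.3 TPM), and the 4 rescue mice lay above the 4 control mice for Arnt and Nr3c1.

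The mice of a group differed little for some of these genes and widely for others. The standard deviation within groups on the log2(TPM + 1) scale was 0.10 for Rxrb, 0.12 for Rxra and 0.12 for Nr1i2, which is larger than that of only 7.79%, 14.8% and 15.2% of tested genes, respectively. It was 0.36 for Nr1i3, larger than for 82.0% of tested genes, and 0.30 for Ahr, larger than for 73.0%. The intervals given below for Nr1i3 and Ahr are accordingly the widest.

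The comparison of Ad-shmGULL with Ad-Ctrl asks what the hairpin against mGULL did to the transcripts of these receptors. At the cutoff used in the study, a log2 fold change of more than 0.5 up or down with P below 0.05 before adjustment, 1 of the 8 genes was called, Ahr, against 7.65% of all tested genes (2.30% lower). None of the 8 had a Benjamini-Hochberg adjusted p under 0.05 over all tested genes, against 3.23% of all tested genes, and 1 of the 8 had an unadjusted P under 0.05, against 20.2%. Control and knockdown mice overlapped for all 8, whereas they did not for 8.99% of all tested genes. Over all tested genes the median log2 fold change was 0.09. Calls over the whole table were 876 higher and 377 lower, and 606 higher and 572 lower once the libraries were rescaled to a common median ratio.

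Ahr was 47.9, 52.5, 65.4 and 63.8 TPM in the control mice and 25.0, 34.3, 47.0 and 49.2 TPM in the knockdown mice. Of the knockdown mice, 3 lay below every control mouse and the fourth, at 49.2 TPM, above 1 of them, so the groups overlapped. Its log2 fold change was -0.59 ± 0.19 (SE), with a 95% interval of -0.99 to -0.18, a limma P of 0.00798 and an adjusted p of 0.0994. An exact two-sided permutation test gave p = 0.0571, where the smallest value that 4 mice against 4 can give is 0.0286. The call rested on 1 library: without knockdown replicate 1, the mouse at 25.0 TPM, the log2 fold change was -0.40 and no member was called. After rescaling of the libraries it was -0.70 (median of ratios) and -0.65 (quantiles). In whole liver, a lower value can reflect fewer cells that express a gene or less RNA in each, and these cannot be told apart here.

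Arnt, the DNA-binding partner of the receptor, was not called. It was 27.8, 21.7, 25.0 and 26.7 TPM in control mice and 27.4, 31.6, 22.5 and 27.2 TPM in knockdown mice, with a log2 fold change of 0.09 (95% interval -0.13 to 0.32, adjusted p = 0.665) that was -0.013 after median-of-ratios rescaling. The ratio of Ahr to Arnt within a mouse does not change when a library is rescaled by 1 factor. It averaged (n = 4 per group) 2.28 (SD 0.388) in Ad-Ctrl, 1.48 (SD 0.567) in Ad-shmGULL and 1.58 (SD 0.168) in Ad-shmGULL+hGULL. Control replicate 1, at 1.72, was below knockdown replicates 3 and 4, at 2.09 and 1.81, and below rescue replicate 1, at 1.76, so the control range overlapped both of the others.

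Of the xenobiotic nuclear receptors, Nr1i2 was 120, 122, 119 and 119 TPM in control mice and 153, 124, 129 and 121 TPM in knockdown mice. Knockdown replicate 1 was the highest of the 12 mice, and the lowest knockdown mouse lay within the narrow control range. The log2 fold change was 0.13 (95% interval -0.07 to 0.32, adjusted p = 0.471). Nr1i3 was 152, 236, 271 and 239 TPM in control mice and 152, 184, 250 and 252 TPM in knockdown mice. Here 1 control mouse and 1 knockdown mouse shared the lowest level, and the log2 fold change was -0.10 with an interval of -0.58 to 0.38 (adjusted p = 0.850).

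Rxra was 236, 264, 293 and 301 TPM in control mice and 237, 227, 243 and 279 TPM in knockdown mice, with a log2 fold change of -0.15 (95% interval -0.35 to 0.05, adjusted p = 0.400). Rxrb ranged from 23.2 to 28.6 TPM in control mice and from 25.98 to 31.3 TPM in knockdown mice, a log2 fold change of 0.09 (adjusted p = 0.582). The groups overlapped for both. Rxra exceeded Rxrb in every mouse, with ratios of 10.4 (SD 1.60) in Ad-Ctrl, 8.74 (SD 0.491) in Ad-shmGULL and 9.77 (SD 0.425) in Ad-shmGULL+hGULL.

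Nr3c1 was 48.4, 41.5, 52.3 and 48.8 TPM in control mice and 37.6, 60.6, 47.8 and 54.0 TPM in knockdown mice. The knockdown mice lay on both sides of the control range, and the log2 fold change was 0.05 (95% interval -0.23 to 0.33, adjusted p = 0.873). Por was 446, 460, 548 and 591 TPM in control mice and 657, 454, 551 and 554 TPM in knockdown mice, with a log2 fold change of 0.11 (95% interval -0.21 to 0.44, adjusted p = 0.730). The groups overlapped for both genes, and the Por difference was 0.0031 after median-of-ratios rescaling and 0.14 after quantile normalization.

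**Figure D2:**
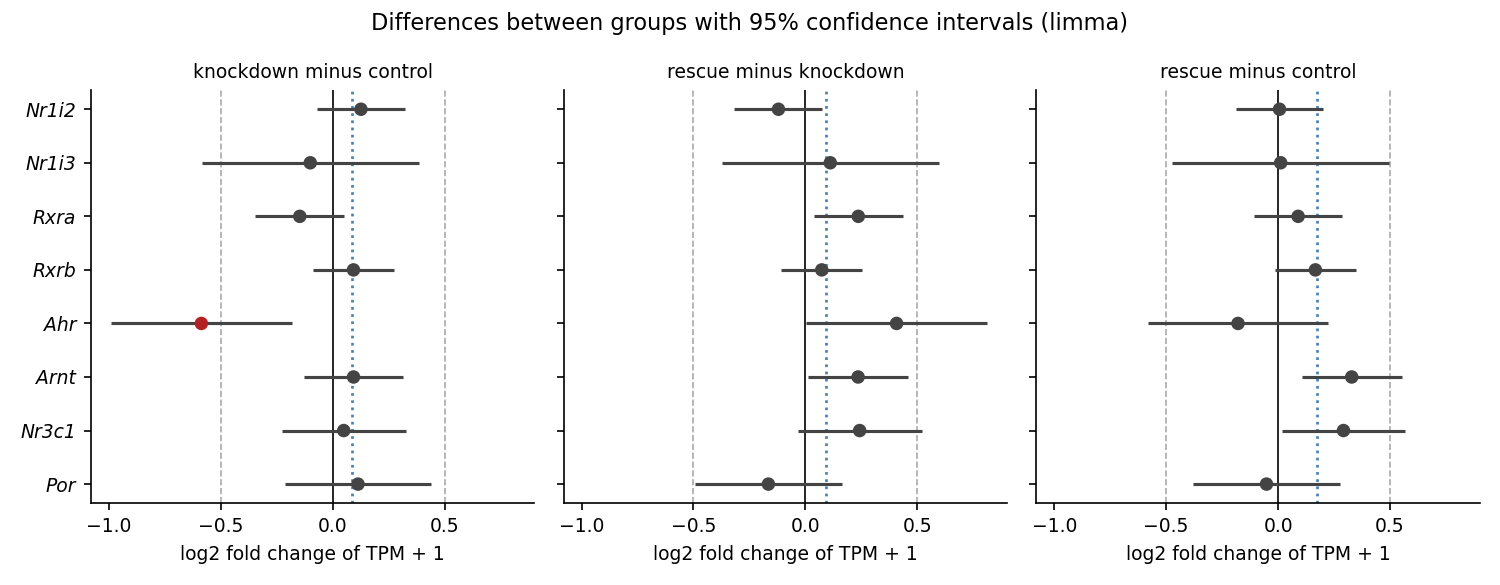
Log2 fold change of TPM + 1 (x axis) of the 8 genes in each comparison, with 95% confidence intervals from limma. Dashed lines mark the cutoff of 0.5, the dotted blue line the median of all tested genes, and the red point the 1 gene past the cutoff of the study, Ahr at -0.59 in knockdown minus control.

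The comparison of Ad-shmGULL+hGULL with Ad-shmGULL asks whether the human RNA moved these transcripts in mice given the hairpin against the mouse one. None of the 8 genes passed the cutoff of the study, against 3% of all tested genes, and 0 of the 16378 tested genes had an adjusted p under 0.05 by limma, while 10.7% had P below 0.05 before adjustment. Of the 8, 3 were among the latter: Rxra, Arnt and Ahr. The rescue and knockdown ranges overlapped for all 8, against 6.38% of all tested genes without overlap. These comparisons share the knockdown mice with the one above.

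Ahr was 56.6, 43.5, 51.5 and 49.9 TPM in rescue mice, each within or below the control range, and 3 of the 4 exceeded every knockdown mouse. Its log2 fold change over the knockdown group was 0.41 (95% interval 0.0040 to 0.81, limma P = 0.0481, adjusted p = 0.463, exact permutation p = 0.143). It ranged from 0.22 without knockdown replicate 1 to 0.53 without knockdown replicate 4, and leaving out knockdown replicate 3 or 4 brought it past the cutoff of the study. Rxra was 287, 275, 294 and 304 TPM in rescue mice and exceeded the knockdown group by 0.24 (95% interval 0.04 to 0.43, adjusted p = 0.417), with 1 knockdown mouse, at 279 TPM, above the lowest rescue mouse. Arnt exceeded the knockdown group by 0.24 as well (95% interval 0.01 to 0.46, adjusted p = 0.446).

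The other 5 genes had intervals that included 0. The log2 fold change was 0.24 for Nr3c1 (95% interval -0.03 to 0.52), 0.11 for Nr1i3 (-0.37 to 0.60) and 0.07 for Rxrb (-0.11 to 0.26). It was -0.12 for Nr1i2 (-0.32 to 0.08) and -0.17 for Por (-0.49 to 0.16). Por ranged from 409 to 637 TPM among the rescue mice, the widest spread of its 3 groups.

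The comparison of Ad-shmGULL+hGULL with Ad-Ctrl asks what remained different when the hairpin and the human RNA were both present. None of the 8 genes passed the cutoff of the study, against 7.49% of all tested genes (6.84% higher), and none had an adjusted p under 0.05, against 2.15%. The median of all tested genes was 0.17, so that most of the table lay higher in the rescue mice: 1121 genes were called higher and 105 lower, against 477 and 242 after median-of-ratios rescaling. For 2 of the 8 genes, Arnt and Nr3c1, all rescue mice lay above all control mice, against 22.3% of all tested genes whose groups did not overlap (21.4% higher).

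Arnt was 32.3, 32.1, 31.4 and 32.0 TPM in rescue mice, within 1 TPM of each other and above the highest control mouse at 27.8 TPM. The log2 fold change was 0.33 ± 0.10 (SE) with an adjusted p of 0.0903 and an exact permutation p of 0.0286, the smallest possible. When the knockdown mice were left out of the fit, the adjusted p was 0.0383, and over all 19 alternatives it ranged from 0.0383 to 0.463. Nr3c1 was 64.9, 57.0, 56.0 and 56.6 TPM in rescue mice, above the highest control mouse at 52.3 TPM, with a log2 fold change of 0.29 ± 0.13 (SE), an adjusted p of 0.177 and an exact permutation p of 0.0286. Rescue replicate 1 stood well above the other three.

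Both differences moved with the scale of the libraries. The factor that would bring each library to a common median ratio over genes ran from 0.859 to 1.01 in control mice, from 0.924 to 1.14 in knockdown mice and from 1.05 to 1.12 in rescue mice. Across the 12 mice, the log2 level of Arnt had a Pearson correlation of 0.86 with this factor and that of Nr3c1 also 0.86, whereas Por had -0.42, Nr1i2 -0.35, Nr1i3 -0.19, Ahr -0.10, Rxra 0.01 and Rxrb 0.41. The points share libraries and the factor is computed from the same table, and 92.6% and 92.0% of tested genes had a lower correlation than Arnt and Nr3c1. After rescaling by the factor, the difference between rescue and control mice was 0.13 for Arnt, still without overlap, and 0.09 for Nr3c1, with overlap. The part that library scale had in these differences was not tested further.

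**Figure D3:**
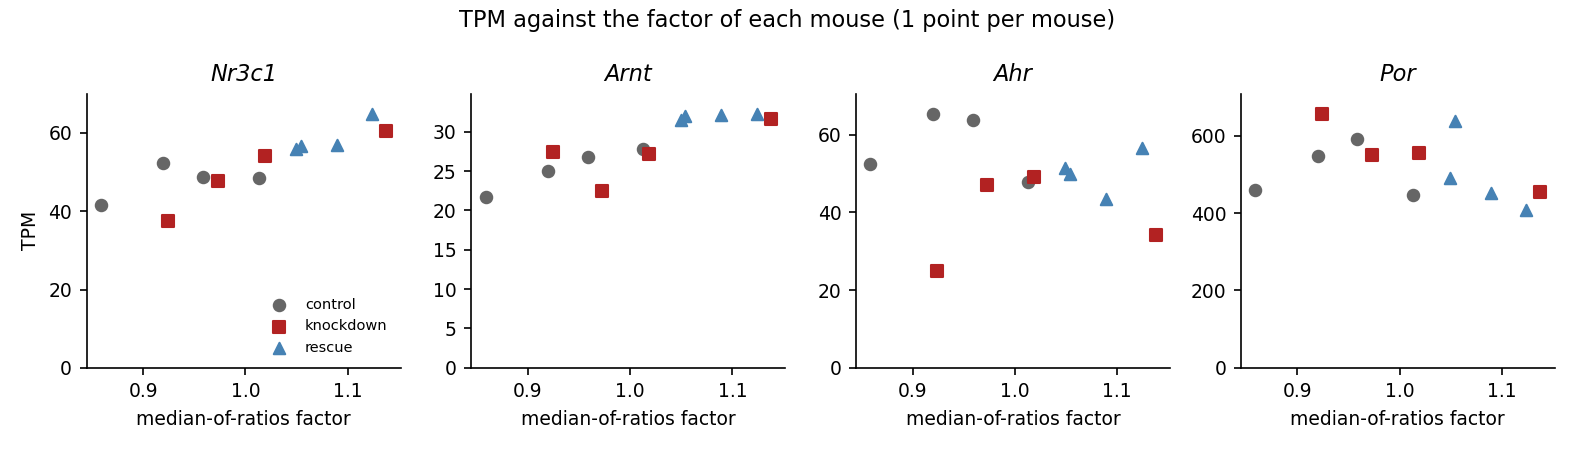
TPM of Nr3c1, Arnt, Ahr and Por (y axis, from 0) against the median-of-ratios factor of the library (x axis), 1 point per mouse, with symbols by group. Nr3c1 and Arnt were higher in libraries with a larger factor (r = 0.86 for each over 12 mice), and the 4 rescue libraries had factors between 1.05 and 1.12.

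For the other 6 genes the rescue and control ranges overlapped. The log2 fold changes were 0.17 for Rxrb (95% interval -0.02 to 0.35), 0.09 for Rxra (-0.11 to 0.29), 0.01 for Nr1i3 (-0.47 to 0.50), 0.01 for Nr1i2 (-0.19 to 0.20), -0.05 for Por (-0.38 to 0.28) and -0.18 for Ahr (-0.58 to 0.22). After median-of-ratios rescaling these became -0.03, -0.11, -0.19, -0.20, -0.26 and -0.38, respectively.

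The ratio of CAR to PXR transcripts and that of P450 transcripts to reductase transcripts were also compared within each mouse, as descriptions that do not depend on library scale. The ratio of Nr1i3 to Nr1i2 was 1.87 (SD 0.429) in Ad-Ctrl, 1.63 (SD 0.493) in Ad-shmGULL and 1.86 (SD 0.346) in Ad-shmGULL+hGULL. It was lowest in knockdown replicate 1, at 0.991, and ran from 1.27 to 2.28 in the other 11 mice. The 81 protein-coding genes of the families Cyp1 to Cyp4 together made up 2.48% (SD 0.262) of all TPM in Ad-Ctrl, 2.74% (SD 0.328) in Ad-shmGULL and 2.77% (SD 0.286) in Ad-shmGULL+hGULL. For each TPM of Por there were 48.6 (SD 2.76) TPM of these P450 transcripts in Ad-Ctrl, 50.4 (SD 10.1) in Ad-shmGULL and 57.0 (SD 9.63) in Ad-shmGULL+hGULL. The ranges of the 3 groups overlapped for each of these ratios.

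**Figure D4:**
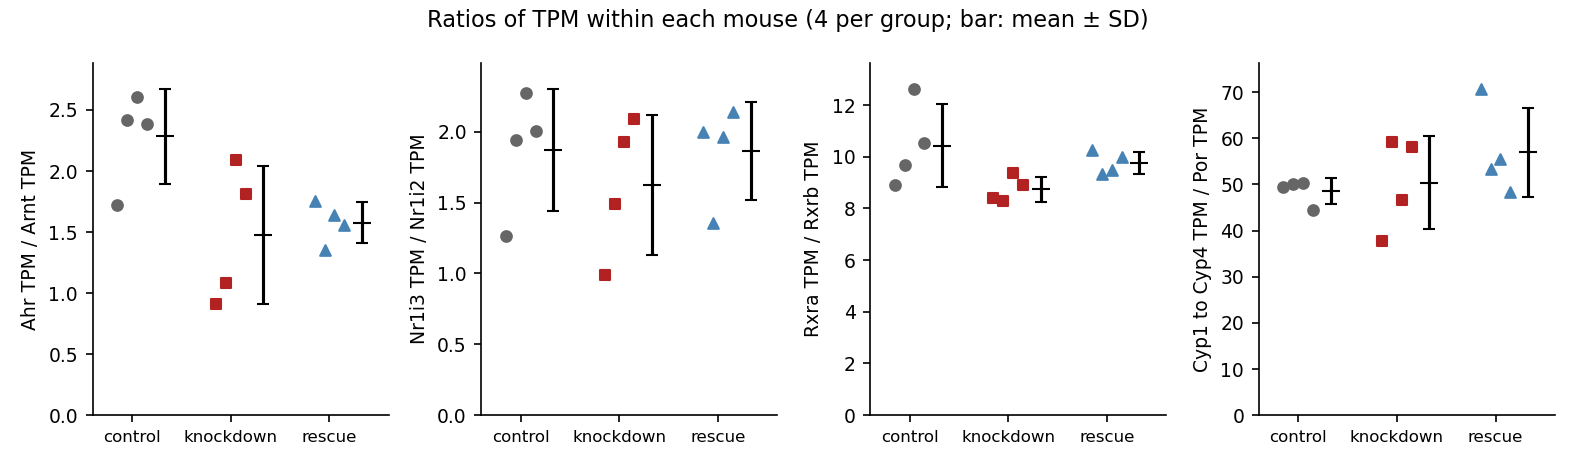
Ratios of TPM within each mouse (y axes, from 0) for Ahr to Arnt, Nr1i3 to Nr1i2, Rxra to Rxrb, and the summed Cyp1 to Cyp4 genes to Por, with 4 mice per group and the mean ± SD beside them. The Ahr to Arnt ratio averaged 2.28 in control mice and 1.48 in knockdown mice, and the groups overlapped in every panel.

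Among the members themselves, Nr1i2 and Por varied together, with a Pearson correlation of 0.73 over the 12 mice and 0.70 after the group means were removed. Nr1i3 correlated with Ahr (0.66, or 0.78 within groups) and with Rxra (0.67, or 0.78 within groups), and Ahr with Rxra (0.72, or 0.67 within groups). Arnt and Nr3c1, both of which followed the library factor, had 0.70 (0.47 within groups). Negative values were found for Nr1i2 with Ahr, at -0.70 (-0.59 within groups), and with Nr3c1, at -0.64 (-0.79 within groups). These values describe 12 libraries in which all genes share the same scaling, and 28 pairs were computed.

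The genes whose log2 levels followed each member most closely over the 12 mice were also found. For Nr3c1 they included Kmt2e (r = 0.99) and Cnot1 (0.98), and for Arnt, Fam168b (0.98), Aasdh (0.97) and Mrps11 (0.97). For Ahr they were Gjb2, a gap junction protein (0.95), Lclat1 (0.95) and Ugt2b1, a glucuronosyltransferase (0.95). By rank correlation the first 3 for Ahr were instead the major urinary protein genes Mup12, Mup11 and Mup13, which have near-identical copies among which reads may be divided arbitrarily. For Nr1i3 they were Dpp9 (0.92), a feature whose name the table gives as a date, and Chchd10 (0.89), for Rxra Errfi1 (0.90), 4930480G23Rik (0.90) and Ptdss1 (0.90), and for Por Vipr1 (0.89), Gpat4 (0.89) and Peg13 (0.88). For Nr1i2 they were Pym1 (0.88), Gm26315 (0.86) and Gm23547 (0.86), and for Rxrb, Rhbdl1 (0.92), 1110013H19Rik (0.90) and Fam122a (0.88).

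Some listed targets of PXR and CAR were called, whereas the transcripts of neither receptor were. Of 34 such genes, 31 were tested, and in Ad-shmGULL 8 passed the cutoff of the study higher than in Ad-Ctrl and 0 lower, against 5.35% of all tested genes higher. The median log2 fold change of the 31 was 0.36, against 0.09 for all tested genes, and 21 had positive and 10 negative values. With an adjusted p under 0.05 there were 4, against 2.44% higher among all tested genes: the P450 genes Cyp2b9, Cyp2c55 and Cyp2c29 and the glutathione transferase Gstt3. P450, glutathione transferase and glucuronosyltransferase genes have close paralogs, so the division of reads among them is uncertain. The other 4, Cyp2b10, Cyp3a11, the drug exporter Abcb1a and Aldh1a7, had adjusted p values of 0.0531, 0.0776, 0.0591 and 0.188.

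Cyp2c29 was 705, 947, 1243 and 947 TPM in control mice and 1577, 2220, 1523 and 2335 TPM in knockdown mice, so that each knockdown mouse exceeded each control mouse. The log2 fold change was 0.9957 ± 0.20 (SE, adjusted p = 0.0237), and it lost significance without control replicate 2 or 4 or knockdown replicate 2 or 4 (adjusted p up to 0.0708). Cyp2c55 was 14.99, 6.31, 9.96 and 6.70 TPM in control mice and 34.1, 49.8, 17.5 and 32.0 TPM in knockdown mice, again without overlap (log2 fold change 1.70 ± 0.32, adjusted p = 0.0181). It lost significance without control replicate 2 or 4 or knockdown replicate 2 (adjusted p up to 0.0558).

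Cyp2b9 had the largest change, from between 0.272 and 1.80 TPM in control mice to 36.6, 92.8, 3.65 and 15.1 TPM in knockdown mice. Its log2 fold change was 3.72 ± 0.83 (SE, adjusted p = 0.0332), with knockdown replicate 3 far below the other three. Leaving out control replicate 2, 3 or 4, knockdown replicate 1, 2 or 4 or rescue replicate 4 brought the adjusted p above 0.05, to at most 0.0942. Cyp2b10, the marker gene of CAR in mouse liver, was 21.3, 13.4, 50.6 and 19.2 TPM in control mice and 131, 89.7, 32.0 and 70.4 TPM in knockdown mice. Control replicate 3 and knockdown replicate 3 crossed, and the log2 fold change was 1.60 ± 0.41 (SE).

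Cyp3a11, the marker gene of PXR, was 1868, 1195, 2547 and 2034 TPM in control mice and 3236, 3711, 2206 and 3831 TPM in knockdown mice. Knockdown replicate 3 was again the lowest of its group and below the highest control mouse (log2 fold change 0.78 ± 0.23). Gstt3 ranged from 11.4 to 23.1 TPM in control mice and from 27.7 to 39.5 TPM in knockdown mice, without overlap (log2 fold change 0.83 ± 0.19, adjusted p = 0.0344). It lost significance without knockdown replicate 1 or 2 or rescue replicate 1, 2 or 4 (adjusted p up to 0.0944). In the same knockdown mice, Nr1i3 was lowest in replicate 1, where Cyp2b10 was highest. Among the control mice, by contrast, replicate 3 was the highest for both Nr1i3 (271 TPM) and Cyp2b10 (50.6 TPM).

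In Ad-shmGULL+hGULL, 0 of the 31 target genes passed the cutoff of the study against Ad-shmGULL in either direction, a share near the 3% of all tested genes. Against Ad-Ctrl, 11 passed it higher and 0 lower, against 6.84% of all tested genes higher, with a median of 0.53 against 0.17. Of these, 2 had an adjusted p under 0.05, against 2.12% higher among all tested genes: Cyp2c55 (log2 fold change 1.47 ± 0.32, adjusted p = 0.0426) and Abcb1a (1.28 ± 0.23, adjusted p = 0.0381). Both lost significance without control replicate 2, 3 or 4, knockdown replicate 4 or any 1 rescue mouse, and under both rescaled values. Cyp2b9 was 42.6, 33.9, 4.09 and 13.7 TPM in rescue mice and Cyp2c29 was 1791, 1260, 1131 and 1359 TPM, the latter between the other groups and overlapping the controls.

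**Figure D5:**
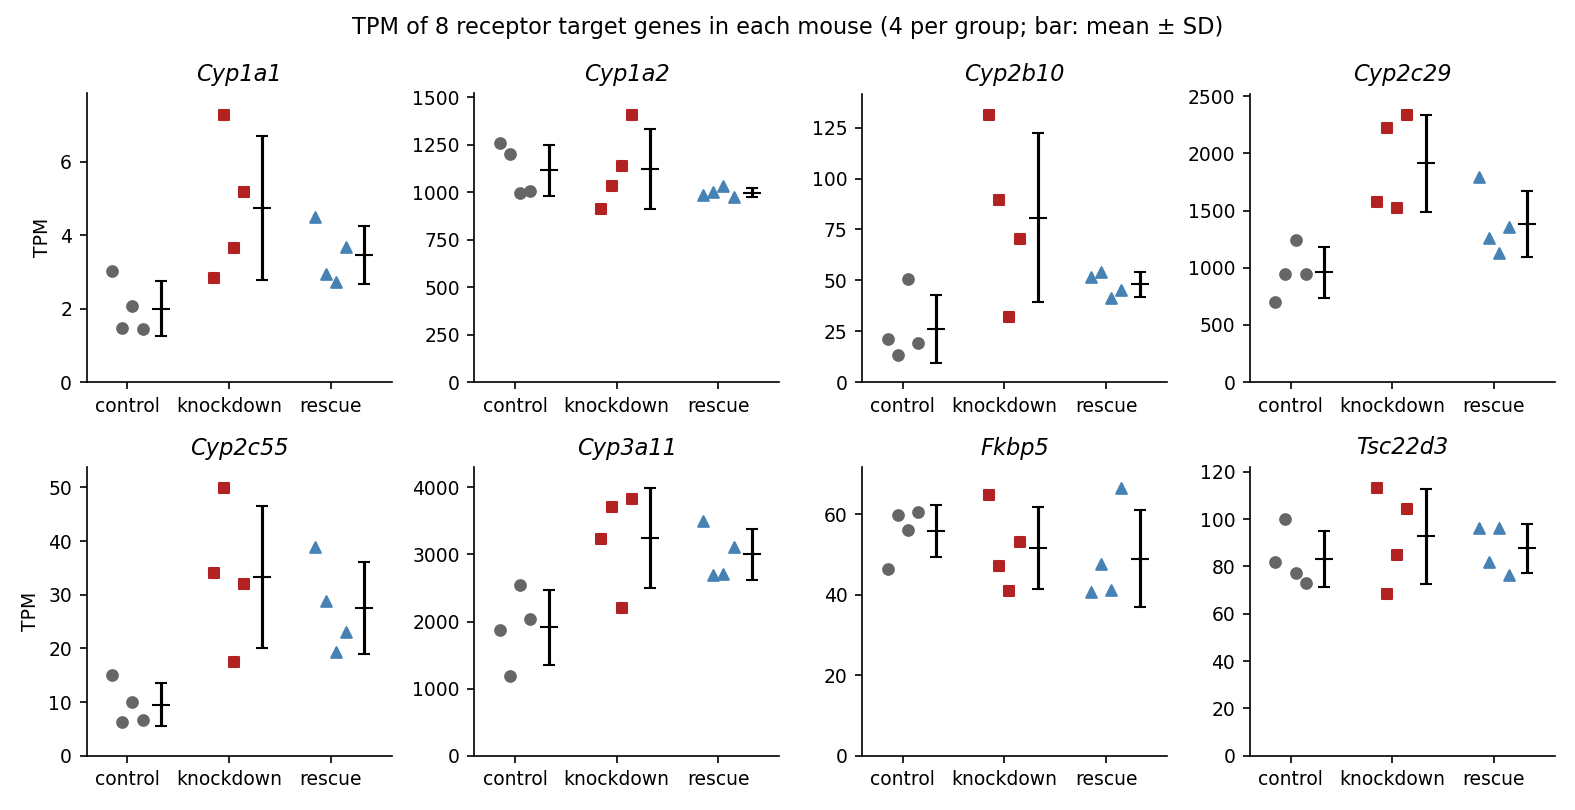
TPM of 8 targets (y axis, from 0) of the aryl hydrocarbon receptor (Cyp1a1, Cyp1a2), PXR and CAR (Cyp2b10, Cyp2c29, Cyp2c55, Cyp3a11) and the glucocorticoid receptor (Fkbp5, Tsc22d3) in the 4 mice of each group, with the mean ± SD beside them. Cyp2c29 and Cyp2c55 did not overlap between control and knockdown mice, whereas Fkbp5 and Tsc22d3 overlapped in every pair of groups.

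The targets of the aryl hydrocarbon receptor were not called lower. Of 11 listed, 8 were tested, and 2 passed the cutoff of the study higher in Ad-shmGULL and 0 lower, against 5.35% and 2.30% of all tested genes, with a median log2 fold change of 0.06 against 0.09 for all tested genes. Cyp1a1, the classical target, was 3.02, 1.46, 2.07 and 1.44 TPM in control mice and 2.83, 7.27, 3.66 and 5.18 TPM in knockdown mice. Only the lowest knockdown mouse lay within the control range, and the log2 fold change was 0.90 ± 0.24 (SE, adjusted p = 0.0616). The mouse with the least Ahr, knockdown replicate 1, also had the least Cyp1a1 of its group. The one with the next lowest Ahr, knockdown replicate 2 at 34.3 TPM, had the most Cyp1a1, at 7.27 TPM. Cyp1a2 was far more abundant, from 996 to 1259 TPM in control mice and from 911 to 1408 TPM in knockdown mice, with a log2 fold change of -0.0019 whose sign changed under quantile normalization.

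The second gene called was Nfe2l2, which encodes the oxidative stress regulator NRF2 (log2 fold change 0.54 ± 0.15, adjusted p = 0.0715). Tiparp, whose product restrains the receptor, had all 4 knockdown mice (9.21 to 16.0 TPM) above all 4 control mice (7.01 to 7.66 TPM), against 6.93% of all tested genes, with a log2 fold change of 0.49 ± 0.15 (adjusted p = 0.0978). Against Ad-Ctrl, Ad-shmGULL+hGULL had 2 targets past the cutoff of the study, the same 2 genes, both higher, against 6.84% of all tested genes. Nfe2l2 had an adjusted p of 0.0432 there, and lost significance without control replicate 2, 3 or 4, knockdown replicate 4 or any 1 rescue mouse, and under both rescaled values. Of 8 tested partners, chaperones and related factors of the receptor, 0 passed the cutoff of the study in any comparison. Of all tested genes, 7.65% passed it in Ad-shmGULL and 7.49% in Ad-shmGULL+hGULL, both against Ad-Ctrl, and 3% between the hairpin groups. For so few genes, 0 is near each of these shares. All rescue mice lay above all control mice for 6 of the 8 and below them for 0, against 21.4% of all tested genes higher. These ranges are before rescaling of the libraries, and overlap after it was not tested for these genes. Epas1, a hypoxia factor that also pairs with ARNT, had an adjusted p under 0.05 in knockdown (log2 fold change 0.34, adjusted p = 0.0270) and rescue mice (0.47, adjusted p = 0.0308) against control mice, and in neither after rescaling or when control replicate 2, 3 or 4 was left out. The knockdown call was also lost without knockdown replicate 2 or 4, and the rescue call without any 1 rescue mouse.

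The targets of the glucocorticoid receptor were called in both directions. All 24 listed were tested, and in Ad-shmGULL 4 passed the cutoff of the study higher (Cdkn1a, G6pc, Mt1 and Mt2) and 3 lower (Pck1, Sds and Tat), against 5.35% and 2.30% of all tested genes. The median log2 fold change was -0.04, against 0.09 for all tested genes. Only G6pc had an adjusted p under 0.05 (0.00606), against 3.23% of all tested genes. G6pc averaged 505 TPM in control mice and 970 TPM in knockdown mice, without overlap, and its adjusted p stayed under 0.05 in all 19 alternatives. The genes most often read as indicators of the receptor, Tsc22d3 (GILZ) and Fkbp5, were not called. Tsc22d3 was 81.8, 100.1, 77.3 and 73.2 TPM in control mice and 113, 68.4, 85.0 and 104 TPM in knockdown mice (log2 fold change 0.14 ± 0.15). Fkbp5 was 46.5, 59.9, 56.1 and 60.6 TPM in control mice and 64.9, 47.2, 41.0 and 53.0 TPM in knockdown mice (-0.12 ± 0.17), and the groups overlapped for both.

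The metallothionein genes Mt1 and Mt2 had log2 fold changes of 0.94 ± 0.28 (adjusted p = 0.0810) and 0.99 ± 0.32 (adjusted p = 0.106) in knockdown mice, and the cell cycle inhibitor gene Cdkn1a 1.22 ± 0.33 (adjusted p = 0.0624). Tat, the tyrosine aminotransferase gene, was 1598, 2935, 3257 and 2932 TPM in control mice and 1863, 834, 1635 and 1923 TPM in knockdown mice. Control replicate 1 lay below 3 of the knockdown mice, and the log2 fold change was -0.80 ± 0.28 (adjusted p = 0.131). Sds, the serine dehydratase gene, had -0.54 ± 0.17 (adjusted p = 0.0966). Against Ad-shmGULL, 0 of the 24 passed the cutoff of the study in Ad-shmGULL+hGULL, a share near the 3% of all tested genes. Against Ad-Ctrl, 2 were higher and 3 lower, against 6.84% and 0.641% of all tested genes. With an adjusted p under 0.05 against Ad-Ctrl there was 1, G6pc, higher, against 2.12% higher among all tested genes. It lost significance in 8 of the 12 fits with 1 mouse left out.

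Genes that supply the hormone or hold the receptor were measured as well. Of 14 tested, 1 passed the cutoff of the study in Ad-shmGULL, Fkbp4, which encodes the cochaperone FKBP52, a share near the 7.65% of all tested genes. It was 99.4, 86.2, 86.3 and 86.4 TPM in control mice, 162, 138, 124 and 129 TPM in knockdown mice, and 119, 135, 121 and 118 TPM in rescue mice. Both other groups lay wholly above the control mice, with log2 fold changes of 0.62 ± 0.09 (SE, adjusted p = 0.00809) and 0.46 ± 0.09 (adjusted p = 0.0408). The first kept an adjusted p under 0.05 whichever mouse was left out, and had one of 0.0531 when the rescue mice were not in the fit, the highest of 19 alternatives (0.00587 to 0.0531).

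The chaperone genes Hspa8 and Stip1 had adjusted p values of 0.0414 and 0.0425 in Ad-shmGULL+hGULL against Ad-Ctrl, with log2 fold changes of 0.42 and 0.50. These and the rescue call of Fkbp4 were lost without control replicate 2, 3 or 4, knockdown replicate 4 or any 1 rescue mouse, and under both rescaled values. Hsd11b1, whose enzyme regenerates active glucocorticoid, was from 151 to 218 TPM in control mice and from 119 to 179 TPM in knockdown mice, a log2 fold change of -0.14 ± 0.15 that was not called. Of the 7 cytosolic regulators of CAR and PXR tested, 1 passed the cutoff of the study, lower in Ad-shmGULL, against 2.30% of all tested genes lower. That gene was Egfr, a growth factor receptor whose signaling keeps CAR inactive. It was 414, 444, 392 and 447 TPM in control mice and 169, 273, 264 and 386 TPM in knockdown mice, all below the controls, against 2.06% of all tested genes, with knockdown replicate 1 lowest (log2 fold change -0.69 ± 0.23, adjusted p = 0.119).

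Around the retinoid X receptors, 1 of 14 tested genes, Rxrg and receptors that pair with the RXRs, passed the cutoff of the study in Ad-shmGULL and in Ad-shmGULL+hGULL against Ad-Ctrl, Pparg in each case, a share near the 7.65% and 7.49% of all tested genes (log2 fold changes of 0.57 ± 0.25 and 0.68 ± 0.25, adjusted p = 0.221 and 0.127). None of 21 tested coregulators did so in any comparison. For 14 of the 21, all rescue mice lay above all control mice, against 21.4% of all tested genes, with a median log2 fold change of 0.26 against 0.17. These are values before rescaling of the libraries, and whether the groups stayed apart after it was not tested for these genes.

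Around P450 reductase, 3 of 11 tested genes listed for electron transfer to P450 enzymes passed the cutoff of the study higher in Ad-shmGULL and 0 lower, against 5.35% of all tested genes higher, with a median of 0.01 against 0.09. All 3 had an adjusted p under 0.05, against 2.44% higher. Not all of them encode microsomal electron carriers. Cyb5b, a cytochrome b5 of the outer mitochondrial membrane, was between 255 and 325 TPM in control mice and between 391 and 595 TPM in knockdown mice (log2 fold change 0.64 ± 0.13, adjusted p = 0.0256), and lost significance without control replicate 2, 3 or 4 or knockdown replicate 2. Cyb5r3, a cytochrome b5 reductase, overlapped by 1 mouse (0.55 ± 0.13, adjusted p = 0.0373) and lost significance in 9 of the 12 fits with 1 mouse left out, those without control replicate 2, 3 or 4, knockdown replicate 2 or 4 or any 1 rescue mouse. Pgrmc2, a heme chaperone that binds P450 enzymes, was between 33.1 and 39.1 TPM in control mice and between 47.5 and 62.1 TPM in knockdown mice (0.53 ± 0.10, adjusted p = 0.0148) and kept significance in all 12.

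Clock genes and the PAR bZIP factors Dbp, Tef and Hlf, which are known to drive several of these receptors and Por through the day, were examined because the hour of killing can set the level of all of them. Of 15 tested, 2 passed the cutoff of the study in Ad-shmGULL, both higher, against 5.35% of all tested genes. Cry1 was one of them (6.66 to 7.52 TPM in control mice and 12.02 to 17.3 TPM in knockdown mice, log2 fold change 0.93 ± 0.12, adjusted p = 0.00677). It kept significance in all 12 fits with 1 mouse left out. The PAR bZIP factors had log2 fold changes of 0.27 ± 0.20 (Dbp), 0.20 ± 0.08 (Tef) and 0.45 ± 0.14 (Hlf), none of them called. Against Ad-Ctrl, Ad-shmGULL+hGULL had 3 of the 15 past the cutoff of the study, Cry1 and Hlf among them, all higher (against 6.84% of all tested genes). Compared with Ad-shmGULL it had 0, a share near the 3% of all tested genes. What the hour of killing contributed was not tested.

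Acute phase genes are those that the liver switches on in inflammation. Of 10 tested, 1 passed the cutoff of the study in Ad-shmGULL, the fibrinogen gene Fgb, lower (log2 fold change -0.52 ± 0.13, adjusted p = 0.0501), against 2.30% of all tested genes lower. All 10 had negative values there, with a median of -0.42 against 0.09. In Ad-shmGULL+hGULL against Ad-Ctrl 0 passed, against 7.49% of all tested genes. There, 9 of the 10 were negative, with a median of -0.21 against 0.17.

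Marker genes placed all libraries as liver, with 7 hepatocyte markers summing to between 68731 and 112739 TPM. No marker of the 9 cell type lists was at 0 in every library. The 5 liver endothelial markers summed to 85.0 to 149 TPM in control mice, 141 to 185 TPM in knockdown mice and 136 to 166 TPM in rescue mice. Of the 5, 1 passed the cutoff of the study higher in Ad-shmGULL, against 5.35% of all tested genes, and all 5 had positive values. That gene was Stab2 (log2 fold change 0.54, adjusted p = 0.0476, not significant in 10 of the 12 fits with 1 mouse left out). Of 7 hepatocyte markers, 2 passed the cutoff of the study lower against Ad-Ctrl: Apoa1 and Tat, the latter also a listed glucocorticoid receptor target. Their log2 fold changes were -0.60 and -0.80 in Ad-shmGULL (against 2.30% of all tested genes lower) and -0.60 and -0.81 in Ad-shmGULL+hGULL (against 0.641%). Of the 7, 2 were higher and 5 lower than in Ad-Ctrl in both of these groups. The macrophage marker Marco was also called lower in both groups (-1.04 and -0.93, against 2.30% and 0.641% of all tested genes lower). Of the 6 markers on its list, 3 were higher and 3 lower in Ad-shmGULL, and 2 higher and 4 lower in Ad-shmGULL+hGULL. The cholangiocyte marker Sox9 was called higher in Ad-shmGULL (0.64, against 5.35% of all tested genes higher). There, 2 of the 4 tested cholangiocyte markers were higher and 2 lower. The 5 cholangiocyte markers summed to 68.1 to 105, 56.9 to 140 and 83.1 to 118 TPM in control, knockdown and rescue mice. The 6 Kupffer cell and macrophage markers summed to 403 to 709, 393 to 658 and 454 to 603 TPM, respectively, and the 5 neutrophil markers to 107 to 238, 123 to 271 and 94.4 to 144 TPM. Against Ad-shmGULL, the neutrophil markers S100a8 and S100a9 were called lower in Ad-shmGULL+hGULL (-0.78 and -0.84, against 0.672% of all tested genes lower) and the T and NK cell marker Gzmb higher (1.03, against 2.33% higher). Of these markers only Stab2 had an adjusted p under 0.05. The part of these cells in the values of the 8 genes was not tested.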

How the data were processed

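Liver RNA-Seq of 12 mice was analysed, grouped by the sample labels. The authors trimmed reads with fastp 0.23.2, checked them with FastQC 0.11.8, aligned them to GRCm38.p6 with HISAT2 2.2.1.0, and counted them on GENCODE VM24 genes, with featureCounts and Subread 2.0 in the submitters' processing notes. The libraries were strand specific. The authors deposited TPM, which sum to 1000000 in every sample, so read depth is unknown and precision is given by the spread of 4 mice. All 37 mitochondrial features are listed at 0, so a 0 does not show absence. The mouse is the replicate, and no source says whether mice shared litters or batches, so p-values measure only the spread between these samples. The description of the series gives the injection route as intravitreal, whereas the adenoviruses of the study are elsewhere said to be given retro-orbitally.

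Values were analysed as log2(TPM + 1) for features with a mean TPM of at least 1, in 1 limma 3.58.1 fit (R 4.3.3) of the 3 groups with trended empirical Bayes variances and no covariate. Fold changes on this scale understate changes of low genes. Calls used the cutoff of the study (log2 fold change beyond 0.5, unadjusted P under 0.05) and, separately, a Benjamini-Hochberg adjusted p under 0.05 over all tested features. Single genes were also tested by exact two-sided permutation. The code was tested on simulated data. The members, the 11 pathway lists and the 9 marker lists were chosen with earlier results of these data known, and support for a list is limited to its counts and median beside all tested features. Named genes were the members, up to 3 genes per pathway list with the largest knockdown change among those with an adjusted p under 0.05 in any comparison, 11 set targets and clock outputs, and the 3 genes most like each member, of which 2 are not reported here. Gstt3, Abcb1a, Aldh1a7, Egfr, Cdkn1a, Mt1, Mt2, Pck1, Sds, Pparg, Tiparp, Fgb, Stab2, Apoa1, Marco, Sox9, S100a8, S100a9 and Gzmb were named after their values were seen. Motifs were searched on both strands of the 250 bases before each RefSeq start (GRCm38.p6). Figures were drawn with matplotlib 3.10.9 (Python 3.11.15). Alternatives were a pseudocount of 0.1, other filters, 2 scalings, only the groups compared, the replicate number as a block, and each mouse left out.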

Additional observations from a re-analysis of the deposited data

Results flagged for a closer look

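In groups of 4, a mouse was marked where the gap to its nearest neighbor exceeded 0.829 of the range of its group (Dixon). Of 39 groups of values tested, 2 had such a mouse, and chance alone marks about 1 in 20. Nr3c1 was 64.9 TPM in hGULL_rescue replicate 1, above the other 3 rescue mice, a gap of 0.882 of the range. The summed TPM of Cyp1 to Cyp4 genes per TPM of Por was 44.5 in GULL_control replicate 4, below the other 3 control mice, a gap of 0.851 of the range.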

How the results depend on the processing

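Of 168 results for the 8 members under the 7 alternatives other than leaving out 1 mouse (pseudocount, filter, scaling, groups in the fit, replicate block), 153 kept their direction and their side of an adjusted p of 0.05. There were 14 that changed direction, under rescaling only, and 1, Arnt in rescue minus control, that passed (adjusted p = 0.0383). With 1 mouse left out, 275 of 288 kept both and 13 changed direction. Over all these settings, the share of members past the cutoff of the study in knockdown minus control was 1 of 8 except without mGULL_knockdown replicate 1 (0). In rescue minus knockdown it was 0 except without mGULL_knockdown replicate 3 or 4 (1 each). Of the other named genes, 799 of 900 results kept both under the other alternatives and 1348 of 1548 with 1 mouse left out.

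With a mean TPM of at least 5, 765, 242 and 708 genes passed the cutoff of the study in the 3 comparisons, against 1253, 492 and 1226. Of genes with an adjusted p under 0.05 there were 529, 0 and 352. These became 236 and 9 (first and last comparison) without a filter, 33 and 1693 with only the groups compared, and 568 for the last with the higher filter. For rescue minus control, median-of-ratios scaling gave 719 at the cutoff of the study and 12 adjusted, and quantile normalization 675 and 11. With 1 mouse left out, the adjusted counts ran from 165 (without GULL_control replicate 3) to 1057 (without mGULL_knockdown replicate 3), from 0 to 2 (without mGULL_knockdown replicate 4) and from 3 (without GULL_control replicate 3 or 4) to 1068 (without GULL_control replicate 1). The first count moved by more than 1.5 times without any 1 mouse except mGULL_knockdown replicate 1, and the last without any 1 of the 12. Counts at the cutoff of the study for rescue minus knockdown ran from 361 to 848 (without mGULL_knockdown replicate 2). The calls with only the groups compared that were lost include Fkbp4, Pgrmc2, Cyp2c29, Cyp2c55, Cyp2b9 and Gstt3 in knockdown minus control. The cause of these shifts was not tested.

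Log2 fold changes that changed direction were, in knockdown minus control, Arnt -0.013, Rxrb -0.013, Nr3c1 -0.059 (median of ratios), Nr3c1 -0.020, Cyp1a2 0.043 (quantiles). In rescue minus knockdown they were Rxrb -0.018, Stip1 -0.0019, Cdkn1a -0.027, Aldh1a7 -0.0030, Apoa1 -0.094 (median of ratios), Rxrb -0.036, Tat 0.0094, Hlf -0.0040, Cdkn1a -0.036, Pck1 -0.013 (quantiles). In rescue minus control they were Nr1i2 -0.20, Nr1i3 -0.19, Rxra -0.11, Rxrb -0.031, Tsc22d3 -0.12, Hsd11b1 -0.12, Dbp -0.20, Tef -0.070 (median of ratios), Nr1i2 -0.12, Nr1i3 -0.10, Rxra -0.041, Rxrb -0.023, Tsc22d3 -0.076, Hsd11b1 -0.051, Dbp -0.13, Tef -0.027 (quantiles). With 1 mouse left out, the ranges that crossed 0 were Nr1i3 -0.28 to 0.044, Nr3c1 -0.048 to 0.18, Cyp1a2 -0.12 to 0.092 (knockdown minus control), Nr1i3 -0.032 to 0.27, Cyp2b9 -1.07 to 0.38, Cyp3a11 -0.26 to 0.0032, Tsc22d3 -0.20 to 0.042, Fkbp5 -0.24 to 0.033, Tat -0.29 to 0.11, Hlf -0.0017 to 0.18, Cdkn1a -0.20 to 0.24, Pck1 -0.058 to 0.28, Pparg -0.0065 to 0.23, Tiparp -0.20 to 0.053, Aldh1a7 -0.052 to 0.25, Apoa1 -0.13 to 0.15, Marco -0.18 to 0.46 (rescue minus knockdown), Nr1i2 -0.041 to 0.069, Nr1i3 -0.17 to 0.17, Por -0.18 to 0.035, Dbp -0.12 to 0.18 (rescue minus control). By Spearman in place of Pearson correlation, at most 1 of the 3 genes most like each member was shared.

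No pairing of mice by the replicate numbers in the titles was detected. Deviations of same-numbered mice from their group means correlated between -0.24 and 0.15, over 0.1 in 2 of 12 pairs. Of the 12 mice, 4 correlated best with a mouse of their own number. With 4 mice per group, such correlations cannot show that the mice were unpaired. With the number as a replicate block, 71 genes in place of 352 had an adjusted p under 0.05 in rescue minus control, and no member changed sides. Read depth is unknown for TPM, so no limit of detection is given.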
